A study of Gallus gallus with 2 samples.

Results

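The genes described are transcription factors of the homeobox, SOX, forkhead (FOX), GATA and T-box families on a chicken array, compared between wild-type cells and cells without the histone variant H2A.Z. They were chosen by symbol alone, as HOXA to HOXD, LHX, NKX, MEIS, PBX, SOX, GATA, TBX or the prefix of SIX5 with a number, or FOX with a letter and a number, leaving out FOXM1. This gave 184 probe sets for 108 genes, out of 27168 non-control probe sets for 13009 genes with 1 symbol. Of the 108 genes, 107 are counted as coding for proteins and 1 is the antisense RNA HOXA10-AS. A further 3 probe sets carry the symbols of several genes and name none here. The cells were DT40, a chicken B lymphoma line from the bursa of Fabricius, with 1 array per group. The wild-type array came from a wild-type clone. The knockout array came from a clone with H2A.Z-2 removed for good and H2A.Z-1 supplied by a transgene that tetracycline shuts off, harvested after 3 days with the drug. The drug stands in the title of the knockout sample only, and each group is 1 clone, so drug, clone and genotype cannot be told apart.

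These families are the classic regulators of cell fate in the embryo. HOX proteins set position along the body axis and bind DNA together with PBX and MEIS partners, while SOX, FOX, GATA and T-box factors direct the formation of tissues such as neurons, gut, blood and heart. Most are silent in a given differentiated cell, and in mouse embryonic stem cells H2A.Z lies with Polycomb proteins at the promoters of many of them. A few, such as FOXO1 and FOXP1, are known to act in the mouse B lineage itself.

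Each value is a MAS5 signal, a linear brightness of 1 probe set on 1 array, and each log2 ratio is knockout minus wild type. A gene was given its brightest probe set. It counts as measured if that probe set reached a signal of 58 on at least 1 array, close to the median of all signals (58.3). Signals under 58 were set to 58 before the ratio, so a fold with 1 side under 58 is a bound, written "at least". Without replicates there was no test, the number of arrays limits the precision, and every difference below is a difference between these arrays. In bulk RNA, fewer cells expressing a gene and less RNA per cell cannot be told apart. Both targets matched the labels: H2A.Z-1 (H2AFZ) read 27331 and 387, and H2A.Z-2 (H2AZ2) 18244 and 17.6, wild type first, as in every pair of signals below.

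Most of these regulators were not above the floor in DT40 cells with or without H2A.Z. Of the 184 probe sets, 129 (70.1%) stayed under 58 on both arrays, against 39.0% of the 27168 non-control probe sets with 1 symbol. Among all non-control probe sets, with or without a symbol, it was 43.7%. By gene, 69 of 108 were under the floor on both arrays and 39 (36.1%) were measured, against 73.4% of all genes. Of the 39, 23 were above the floor on both arrays (21.3% of the 108, against 61.6% of all genes), 11 on the knockout array only and 5 on the wild-type array only. As shares of all 108 genes, the knockout-only genes were 10.2%, against 6.95% of all genes on the array, and the wild-type-only genes 4.63%, against 4.87%. Only a gene under 58 in wild type can be knockout-only, and a larger share of the members was. The 11 knockout-only members stood beside 69 under the floor on both arrays. On the whole array, 904 knockout-only genes stood beside 3459, so these counts show no excess among the members. For wild type only, 5 stood beside 69, and 633 beside 3459. Other transcription factor families were measured more often: 15 of 20 ETS factors, 8 of 12 Kruppel-like factors and 91 of 111 ZNF and ZBTB zinc finger factors. Close to the floor a small difference decides the call, and 10 member probe sets had their higher signal within 10% of 58, 4 of them at or above it. The nearest on either side were 57.4 and 59.0.

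**Figure D1:**
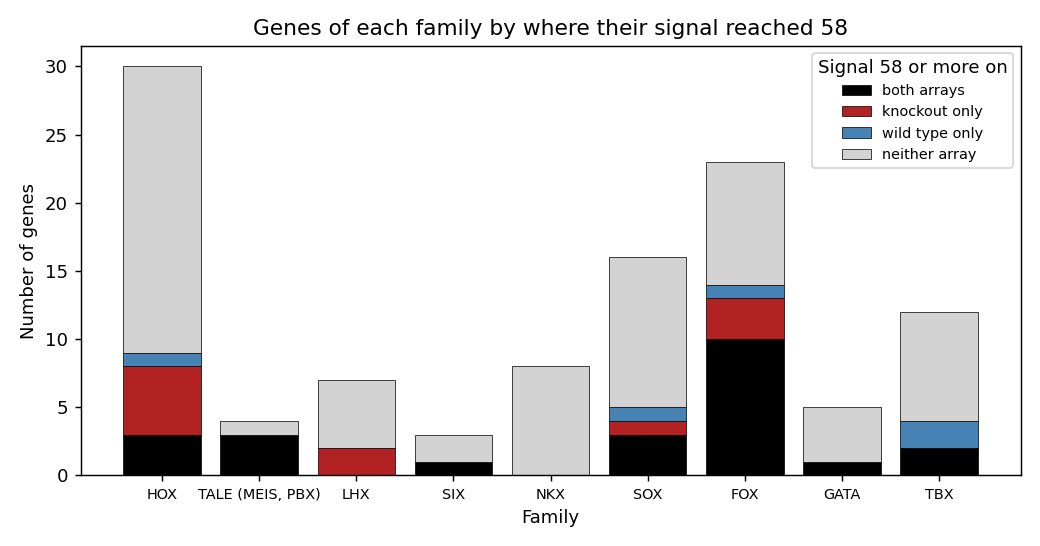
Number of genes (vertical axis) in each family (horizontal axis), coloured by whether the signal of the gene's probe set reached 58 on both arrays, on 1 of them or on neither. Forkhead genes form the largest group that reached it on both arrays, with 10 of 23, while 21 of 30 HOX genes and all 8 NKX genes reached it on neither.

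By number, forkhead genes were the family with the most measured members. Of 23 FOX genes, 14 (60.9%) were measured, against 73.4% of all genes and 3 of 4 MEIS and PBX genes. Of the 14 FOX genes, 10 had higher and 4 lower signals in the knockout, with a median log2 ratio of 0.51. The floor set the direction of 3 genes above it in the knockout only and 1 in wild type only. Of all measured genes, 51.5% were higher. By subclass, 10 of 11 genes of FOXJ, FOXK, FOXN, FOXO and FOXP were measured. Of FOXA, FOXC, FOXD, FOXE, FOXF, FOXI and FOXL, it was 4 of 12 genes, with FOXI (2 of 2) and FOXL (1 of 1) measured throughout. This grouping was not among the planned comparisons, so it describes these signals and sets no class of genes apart. FOXA1, FOXC1, FOXC2, FOXD1, FOXD2, FOXD3, FOXE3, FOXF1 and FOXP2 were under the floor on both arrays on their own probe sets. A probe set that carries the symbols of both FOXP2 and MDFIC read 93.1 and 23.9, and which of the 2 genes it reports is not settled.

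FOXK1 and FOXK2, repressors that in mouse cells also raise genes of glycolysis, were both higher in the knockout. FOXK2 read 1066 and 2785, 2.61-fold higher (log2 ratio 1.39). Its other measured probe sets read 873 and 2402, 942 and 2133, 772 and 1242, and, in the opposite direction, 117 and 73.5. FOXK2 was therefore higher on 4 of 5 probe sets, by 1.61-fold to 2.75-fold, and lower on the dimmest, by 1.59-fold. FOXK1 had signals of 163 and 319 on 1 probe set (1.96-fold higher) and 138 and 279 on the other (2.02-fold higher), so the pair of probe sets lies on either side of 2-fold.

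The FOXO factors act downstream of phosphoinositide 3-kinase and AKT, which keep them out of the nucleus. FOXO1, which mouse B cell precursors need for antigen receptor recombination, had nearly the same signal on both arrays, 1431 and 1556 (log2 ratio 0.12). FOXO4 had 987 and 1294 (log2 ratio 0.39), with another probe set at 83.6 and 89.6. FOXO3, known in mammals for inducing cell death and quiescence genes, had 61.5 and 168, 2.73-fold higher. Its wild-type signal lies just above the floor, and its other 2 probe sets were under 58 on both arrays, at 27.5 and 45.2, and at 2.39 and 24.8. All 3 FOXO genes thus had the higher signal in the knockout, but only FOXO3 by 2-fold, on 1 dim probe set.

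FOXP1, which in mice is needed in early B cell development, was lower on its brightest probe set, from 1270 to 971 (log2 ratio -0.39), and higher on the other measured ones, from 152 to 171 and from 35.2 to 64.7 (at least 1.12-fold); another was under the floor at 39.8 and 43.1. Its direction is therefore not settled by these probe sets. FOXN2 had 955 and 863 (log2 ratio -0.14), with other probe sets at 722 and 514 and at 263 and 272. FOXN3, a repressor linked to cell cycle checkpoints, had 1219 and 1722 (log2 ratio 0.50), while its dim second probe set went the other way, from 81.1 to 53.2. FOXJ3, a factor of spermatogenesis in mice, went from 93.3 to 56.4, at least 1.61-fold lower, with its other probe set under the floor at 22.8 and 40.7.

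Several forkhead genes of other tissues were also measured. FOXL2, the factor of ovarian granulosa cells, had 368 and 868, 2.36-fold higher (log2 ratio 1.24), on its only probe set. FOXI2 had 57.6 and 112, at least 1.92-fold higher, and FOXI1, a factor of inner ear and kidney cells, 105 and 95.7. FOXA2, a pioneer factor of endoderm, went from 57.5 to 83.1, and FOXN1, the factor of thymic epithelium, from 54.9 to 86.7. For FOXI2, FOXA2 and FOXN1 the wild-type signal lay within 10% of the floor, so their place in the knockout-only group depends on a few units of signal.

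**Figure D2:**
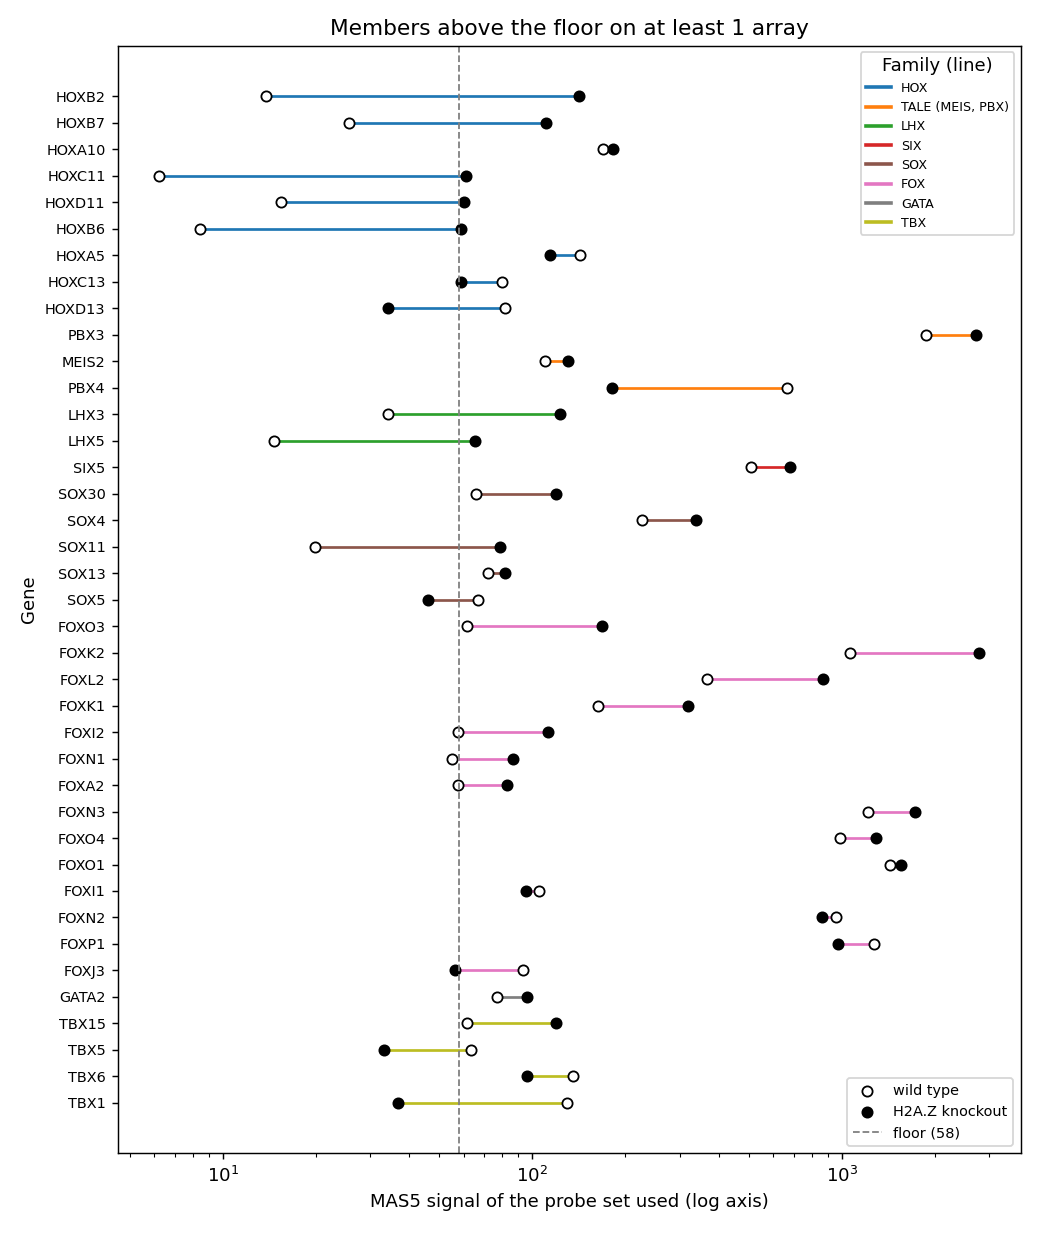
MAS5 signal (horizontal axis, log scale) of the probe set used for each of the 39 measured genes (vertical axis, grouped by family and ordered by ratio), with open points for wild type, filled points for the knockout and a dashed line at the floor of 58. FOXK2, FOXL2 and FOXO3 stand to the right in the knockout and PBX4 to the left, while most HOX, LHX and SOX genes cross or lie near the floor.

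PBX and MEIS proteins, of the TALE homeobox class, are the partners with which HOX proteins bind DNA. PBX4 had the ratio farthest from 0 among the 23 members above the floor on both arrays, with 665 and 181, 3.67-fold lower (log2 ratio -1.87). The other 2 probe sets of PBX4 were lower too, from 392 to 176 (2.22-fold) and from 152 to 77.9 (1.95-fold). PBX3, its relative, differed in the opposite direction on its only probe set, from 1867 to 2706 (log2 ratio 0.53). MEIS2 had 110 and 130 on 1 probe set and 89.5 and 131 on the other, higher on both in the knockout by less than 1.5-fold. MEIS1, which drives leukaemia together with HOXA9 in mice, was under the floor at 2.65 and 9.33. The TALE genes thus held both a member lower on all 3 of its probe sets and members slightly higher.

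Of 30 HOX genes, 9 (30.0%) were measured, against 73.4% of all genes, and 21 were not. Of the 9, 3 were above the floor on both arrays, 5 in the knockout only and 1 in wild type only. Of all genes on the array, 61.6%, 6.95% and 4.87% fell in these 3 groups. The 5 knockout-only HOX genes stood beside 21 under 58 on both arrays, where on the whole array 904 stood beside 3459. HOXB2, a gene of hindbrain patterning, had 13.8 and 142, at least 2.45-fold higher, on its only probe set. HOXB7 had 25.6 and 111, at least 1.92-fold higher, while its other probe set was under the floor on both arrays. The remaining knockout-only genes hardly passed 58: HOXB6 reached 59.0 (8.45 in wild type), HOXD11 60.4 (15.4) and HOXC11 61.1 (6.24). Their bounds are therefore close to 1-fold. HOXD13, a gene of digit formation, went the other way, from 81.5 to 34.1, at least 1.40-fold lower. HOXB6 and HOXC11 each reached 58 on 1 of 3 probe sets. Another HOXB6 probe set, under the floor on both arrays, read 43.0 and 9.92.

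The 3 HOX genes above the floor on both arrays differed by less than 1.5-fold. HOXA10 had 169 and 182, HOXA5 143 and 114, and HOXC13 80.0 and 58.9. HOXA9 and HOXB4, which act in blood progenitors of mammals, were under the floor on both arrays, HOXA9 at 19.0 and 11.3 and HOXB4 at 3.28 and 56.3. Part of the HOX signal came from probe sets with A1 in their names, which in the maker's naming are designed from the opposite strand of the source sequence. Of 8 such HOX probe sets, 4 were measured, against 6 of the 53 others. HOXA5, HOXB6 and HOXC13 rest on such a probe set alone, and which strand's RNA it reads was not settled here. HOXA10 had 1 measured probe set of each kind, at 122 and 152 with A1 and at 169 and 182 without it. Its remaining probe sets were under the floor on both arrays, at 5.9 and 6.37, and at 2.87 and 24.8.

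In chicken assembly GRCg7b, HOX genes lie in clusters on chromosomes 2 (HOXA), 27 (HOXB), 34 (HOXC) and 7 (HOXD). The measured genes were 2 of 11 in HOXA, 3 of 9 in HOXB, 2 of 4 in HOXC and 2 of 6 in HOXD, against 73.4% of all genes. All 3 measured HOXB genes were above the floor in the knockout only, while HOXB1, HOXB3, HOXB4, HOXB5, HOXB8 and HOXB13 of the same cluster stayed under 58 on both arrays. Of all genes on the array, 6.95% were above the floor in the knockout only, 904 genes beside 3459 under it on both arrays. HOXB6 hardly passed the floor. In HOXA both measured genes were above the floor on both arrays.

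**Figure D3:**
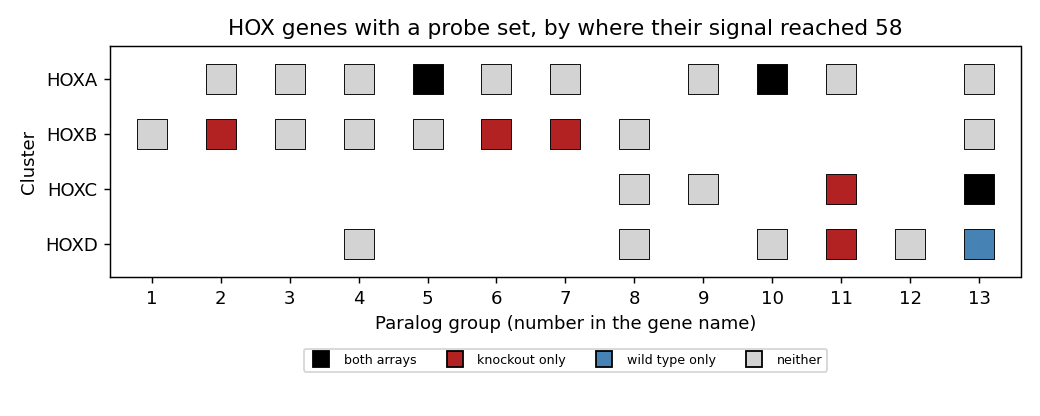
HOX genes with a probe set, placed by cluster (vertical axis) and paralog group, the number in the gene name (horizontal axis), and coloured by where the signal reached 58 (HOXA10-AS left out, gaps are genes with no probe set among the members). Knockout-only genes are HOXB2, HOXB6, HOXB7, HOXC11 and HOXD11, and most positions are under the floor on both arrays.

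Among LIM homeobox genes, which pattern the nervous system and glands, 2 of 7 were measured, both in the knockout only. Of all genes on the array, 73.4% were measured and 6.95% were above the floor in the knockout only. The 2 LHX genes stood beside 5 under the floor on both arrays, where on the whole array 904 stood beside 3459. LHX3, a factor of the pituitary and of motor neurons, had 34.3 and 123, at least 2.12-fold higher, and LHX5, a forebrain factor, 14.6 and 65.3, at least 1.13-fold higher. LHX1, LHX2, LHX6, LHX8 and LHX9 were under the floor on both arrays. Of the sine oculis homologues SIX3, SIX5 and SIX6, only SIX5 was measured, with 509 and 678 (log2 ratio 0.41) and another probe set at 3.52 and 83.5, while SIX3 and SIX6, factors of the eye and forebrain, stayed under the floor. None of the 8 NKX genes was measured on its brightest probe set or any other, including NKX2-1 of thyroid and lung, NKX2-3 of the spleen, NKX2-5 of the heart and NKX6-1 of the pancreas. The NKX gene nearest to the floor was NKX3-2, at 57.1 and 35.6.

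SOX proteins bend DNA through an HMG box. Of 16 SOX genes, 5 (31.2%) were measured, against 73.4% of all genes. Of the 5, 4 were higher in the knockout, where 51.5% of all measured genes were. SOX11 was above the floor in the knockout only and SOX5 in wild type only, so the floor set their directions. SOX4, which in mice is needed for early B cell precursors, had 226 and 339, higher by a log2 ratio of 0.59, with its other probe set under the floor. SOX30, a testis factor, had 65.7 and 119 (1.81-fold higher), and SOX13, 71.9 and 81.7. SOX11, a neural gene that human mantle cell lymphoma also expresses, had 19.9 and 78.6, at least 1.36-fold higher on 1 of 2 probe sets. SOX5 went from 66.9 to 46.2, at least 1.15-fold lower. SOX2 of stem cells, SOX9 of cartilage, SOX10 of the neural crest and SOX17 of endoderm were all under the floor on both arrays.

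Of the 5 GATA genes with a probe set, only GATA2, a factor of blood stem and progenitor cells, was measured, at 77.1 and 96.0 (log2 ratio 0.32). On the whole array, 73.4% of genes were measured. GATA3, the factor of T cells, was under the floor at 25.6 and 14.4, as were GATA4, GATA5 and GATA6 of heart and endoderm. GATA2 differed by less than 1.5-fold, and for the other 4 no fold can be given.

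Of 12 T-box genes, 4 (33.3%) were measured, against 73.4% of all genes. Of the 4, 3 were lower and 1 higher, with a median log2 ratio of -0.31, where 51.5% of all measured genes were higher. TBX1 and TBX5 were above the floor in wild type only and so could only be lower. The 2 above it on both arrays, TBX6 and TBX15, went opposite ways, with a median of 0.23. TBX1, a gene of the pharyngeal arches, had 129 and 36.8, at least 2.22-fold lower on its only probe set. TBX6, of the paraxial mesoderm, had 135 and 96.2 (log2 ratio -0.49), and TBX5, of the heart and forelimb, 63.4 and 33.1, at least 1.09-fold lower. TBX15 went the other way, from 61.7 to 119 (1.93-fold higher). The 8 others, TBX2, TBX3, TBX4, TBX10, TBX18, TBX19, TBX20 and TBX22, were under the floor on both arrays.

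Set against all genes, the measured members were more often higher than lower in the knockout. Of 39, 27 (69.2%) had a log2 ratio above 0, against 51.5% of all measured genes, and the median was 0.24 against 0.02. At least 2-fold higher were 5 (12.8%), namely FOXO3, FOXK2, HOXB2, FOXL2 and LHX3, against 3.95% of all measured genes. At least 2-fold lower were 2 (5.13%), PBX4 and TBX1, against 6.71%. At 1.5-fold, 11 members (28.2%) were higher, against 12.6% of all measured genes, and 3 (7.69%) lower, against 15.9%. A gene above the floor on 1 array only had to differ in that direction, so the 23 above the floor on both arrays are the plainer comparison: their median was 0.32, against 0.004 for all such genes. Many members are dim: 29 of the 39 had a higher signal under 500. Of these 29, 3 were at least 2-fold higher and 1 lower, where 5.41% and 7.09% of all measured genes of that brightness were. With so few members, these shares describe the arrays and set nothing apart.

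**Figure D4:**
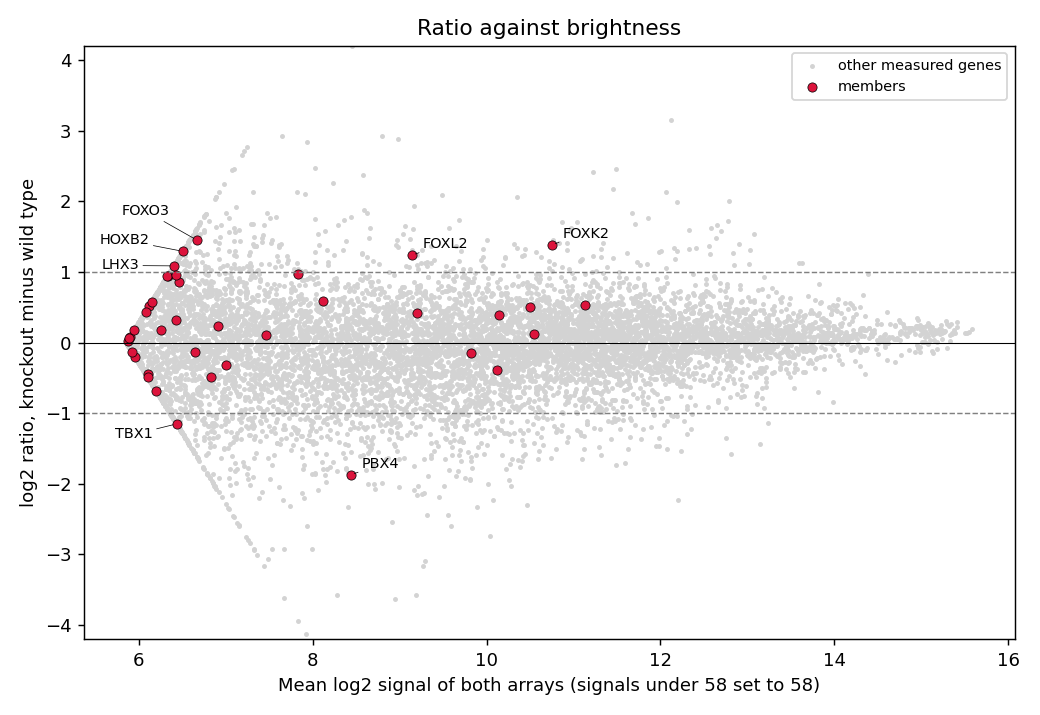
Log2 ratio, knockout minus wild type (vertical axis), against the mean log2 signal of both arrays (horizontal axis) for all measured genes (grey) and the 39 members (red), with dashed lines at 2-fold; 4 genes lie beyond the plotted range. FOXK2, FOXL2 and PBX4 stand away from the floor, while FOXO3, HOXB2, LHX3 and TBX1 lie along or close to the edge that the floor sets.

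How far a single ratio can be trusted was judged from genes with several probe sets. In 2240 genes, exactly 2 probe sets passed the floor on each array. There the error of 1 log2 ratio was 0.41 (SD of the difference over the square root of 2). Counting only probe sets under 500 on both arrays, 927 genes had exactly 2, whether or not they had brighter ones. In these 927 the error was 0.46. It covers probes and isoforms only, since no culture or clone was repeated. Among members, 10 genes had at least 2 measured probe sets, and in 6 of these (FOXK1, FOXO4, HOXA10, MEIS2, PBX4 and SIX5) all went the same way. In FOXK2, FOXN2, FOXN3 and FOXP1 they did not. The other 29 measured members rest on 1 measured probe set, including FOXL2, FOXO3, HOXB2, LHX3 and TBX1. Of these 29, 15 have a single probe set on the array. The rest, among them FOXJ3, FOXO3, HOXC11, SOX5, TBX5 and TBX15, have others that stayed under the floor on both arrays.

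**Figure D5:**
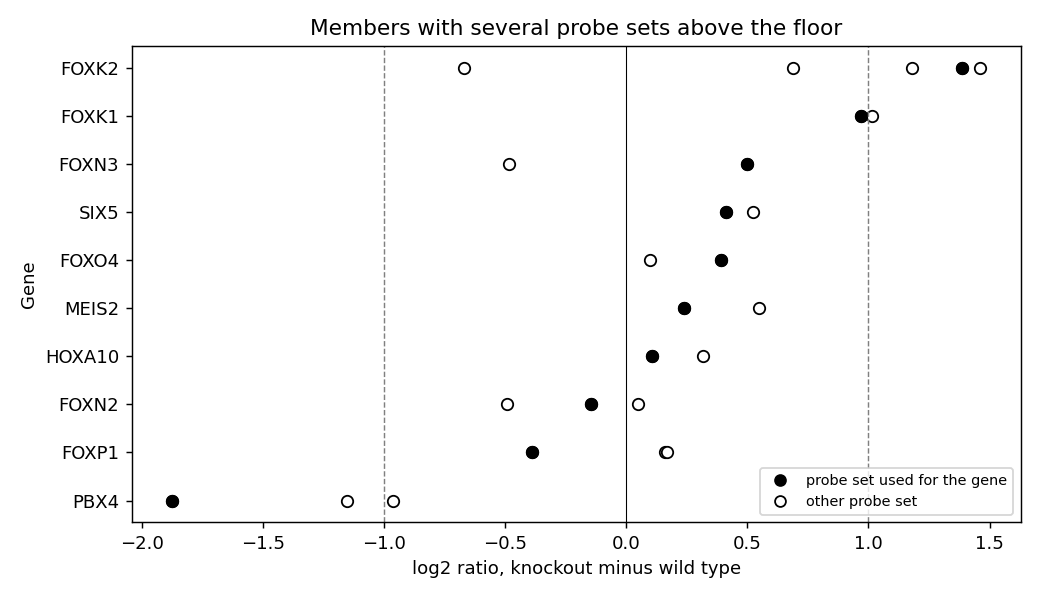
Log2 ratio, knockout minus wild type (horizontal axis), of every measured probe set of the 10 members with at least 2 of them (vertical axis); filled points mark the probe set used for the gene and dashed lines 2-fold. The 3 probe sets of PBX4 lie between -1.87 and -0.96, and 4 of 5 probe sets of FOXK2 between 0.69 and 1.46.

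Of 26 partners and cofactors of these factors on the array, 17 (65.4%) were measured, against 73.4% of all genes. In the knockout only were 4 of the 17, beside 9 genes under the floor on both arrays. On the whole array, 904 stood beside 3459. Of these 17, 13 were higher and 4 lower, with a median log2 ratio of 0.07, where 51.5% of all measured genes were higher. The 4 in the knockout only (LEF1, TAL1, DACH2 and ZFPM2) could only be higher, and DACH2 (58.9) and ZFPM2 (59.4) hardly passed the floor. At 1.5-fold, 5 were higher and 0 lower, against 12.6% and 15.9% of all measured genes. At least 1.5-fold higher were LMO2, a bridging protein of GATA complexes (76.5 and 161, 2.10-fold), the corepressor TLE4 (613 and 1161, 1.89-fold) and the TALE repressor TGIF1 (589 and 1007, 1.71-fold). To these came LEF1 (46.2 and 105, at least 1.80-fold, on a probe set with A1 in its name) and the blood factor TAL1 (32.7 and 94.5, at least 1.63-fold). LMO2 was measured on 1 of 2 probe sets and TAL1 on 1 of 4. The other probe set of TLE4 had a log2 ratio of 0.31. None was 1.5-fold lower on the probe set used. Other probe sets differed: NCOR1 was lower on all 5 measured ones, by log2 ratios from -0.23 to -1.41. Those of PKNOX2 ran from -1.34 to 0.63 and those of EYA3 from -0.60 to 0.03. PKNOX1, a partner of PBX proteins, had 200 and 247. EYA3, of a family of partners of SIX5 and its relatives, had 1477 and 1510, while EYA1, EYA2 and EYA4 were under the floor.

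On a chosen list of homeobox genes outside these families, many were also under the floor. Of 50, 22 (44.0%) were measured, against 73.4% of all genes, and 28 were under the floor on both arrays. The homeobox genes PKNOX1, PKNOX2, TGIF1, TGIF2 and HHEX were counted among the cofactors instead. All of them but TGIF2 were measured, HHEX at 10188 and 10670. Of the 22, 12 were higher and 10 lower, with a median of 0.02, a sign that changed under 6 of 10 other ways of processing. The floor set the direction of 7 genes above it in the knockout only and 5 in wild type only. Of all measured genes, 51.5% were higher. At 1.5-fold, 5 of the 22 were higher and 2 lower, against 12.6% and 15.9% of all measured genes. PAX3, of muscle and neural crest, went from 148 to 26.7, at least 2.55-fold lower, and PRRX1, of limb mesenchyme, from 128 to 41.7, at least 2.20-fold lower. DLX1 (12.4 and 115, at least 1.98-fold), PAX2 (at least 1.65-fold), SHOX (at least 1.58-fold), DLX5 (at least 1.55-fold) and ZFHX3 (1.51-fold) were higher in the knockout. PRRX1 and ZFHX3 were measured on 1 of 3 probe sets each, and PAX2, SHOX and DLX5 on 1 of 2 each. DLX1 was measured on 2 of 3, the other at a log2 ratio of 0.14. As among the members, genes near the floor differed in both directions.

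Genes that FOXO factors regulate, or that regulate them, had 19 of 25 (76.0%) measured, against 73.4% of all genes. Of the 19, 12 were higher and 7 lower, with a median log2 ratio of 0.21, where 51.5% of all measured genes were higher. The higher ones at 1.5-fold were the mitophagy receptor BNIP3 (1093 and 2823, 2.58-fold), KLF2 (880 and 2208, 2.51-fold), the kinase subunit PIK3CD (1597 and 3139, 1.97-fold), GADD45A (1.90-fold) and the cell cycle inhibitor CDKN1B (610 and 948, 1.55-fold). The other probe set of CDKN1B had a log2 ratio of 0.07 and that of BNIP3 0.95. The 4 of PIK3CD ran from 0.38 to 1.52. The lower ones were PIK3IP1, an inhibitor of phosphoinositide 3-kinase (401 and 221, 1.81-fold), the repressor BCL6 (1.55-fold) and TRIM63 (1.51-fold). AKT1 had 305 and 361 and the known FOXO target CCNG2 1901 and 1459. The list thus differed in both directions. Its 5 higher and 3 lower genes of 19 stand beside 12.6% and 15.9% of all measured genes.

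Markers of cell types were read on the same arrays. All 12 B cell markers on the array were above the floor on both arrays, and 11 were lower in the knockout, with a median log2 ratio of -0.65 and summed signals of 81511 and 57423. At least 1.5-fold lower were 7 of the 12, against 15.9% of all measured genes, and none was 1.5-fold higher on the probe set used. EBF1 was the marker with the higher signal, 694 and 960 (log2 ratio 0.47), with its other probe set lower (-0.33). IGLL1 hardly differed on the probe set used (25046 and 24102), and its 6 measured probe sets ran from a log2 ratio of -0.12 to 2.09. The invariant chain CD74 (14969 and 5510), the lymphoid factor IKZF1 (3113 and 1232) and the receptor CD72 (6309 and 2814) were at least 2-fold lower. The kinase SYK (1.77-fold), PAX5 (1.66-fold), POU2AF1 (1.59-fold) and BCL6 (1.55-fold) were lower too, while CD79B (8827 and 7718) and BTK (5115 and 3958) differed by less than 1.5-fold. Of 14 genes of the erythroid and thrombocyte programme that GATA1 drives, 11 (78.6%) were measured, against 73.4% of all genes. The median was 0.17 and the summed signals were 18868 and 17208. Most of this sum came from TFRC (8766 and 9559) and EPB41 (9226 and 6480), so it says little about the other genes of the list. The alpha globin HBAD went from 35.3 to 132, at least 2.27-fold higher, on 1 of 3 probe sets. EPB42 went from 35.5 to 92.0, at least 1.59-fold higher, on 1 of 2. Their other probe sets were under the floor on both arrays, as were GFI1B, GP9 and RHAG. Without shared probe sets, 0 genes of this list were at least 2-fold different. T cell markers had 6 of 9 measured (66.7%), against 73.4% of all genes, and 5 of these were lower. Of the 5, CD3E, CD5 and ZAP70 were above the floor in wild type only and so could only be lower. At 1.5-fold, 3 of the 6 were lower, against 15.9% of all measured genes. The summed signals were 13569 and 4867, mostly from CD3D (12407 and 4162, 2.98-fold lower). CD247 was 1.69-fold lower and CD3E at least 1.55-fold lower. Of 6 myeloid markers only CSF1R was measured (65.7 and 106; summed 161 and 175), and fibroblast markers had 7 of 10 measured, summed 958 and 1081, with DCN, LUM and VIM under the floor. Within that sum they went both ways: FN1 read 122 and 312 (2.55-fold higher) and PDGFRA was at least 1.72-fold higher, while COL1A1 read 123 and 21.7 (at least 2.12-fold lower). For FN1 only 1 of 8 probe sets was measured, and it has A1 in its name, so which strand it reads was not settled. Whether the lower B cell genes, or any other of these markers, have a part in the members' differences was not tested.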

How the data were processed

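RNA from 1 wild-type and 1 knockout DT40 culture was hybridised to 1-colour Affymetrix chicken arrays. The deposited values are 1 linear intensity per probe set, made by the authors with MAS5, as the submitters' processing notes name it. Its version and scaling target were not given in the sources used here, and detection calls were not used. Both arrays had nearly the same trimmed mean (2% left out at each end) and were used as deposited. MAS5 scaling can itself set this mean, so the match does not show that the arrays share a scale. Gene names came from the platform's annotation, where 27178 probe sets had 1 symbol, 177 several and 11180 none. Of the 108 member genes, 107 were found by gene ID in RefSeq (assembly GRCg7b, used for names, chromosomes and order), and 0 symbols changed.

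Control probe sets (96) were left out. Signals under 58 were set to 58, log2 was taken, and a gene's value is that of its probe set with the highest mean. Every member above the floor on at least 1 array is named with its signals, and list members that differ by at least 1.5-fold are named; other names were chosen after their values were seen. The members and lists were chosen with earlier results of these data known. The alternatives were median centring, quantile normalization, loess (span 0.3), a lower and a higher floor (25th and 75th percentile), a pseudocount of 58, both arrays above the floor, the median of all probe sets, and no shared probe sets; leaving out A1 probe sets was added after seeing the data. The computation (Python 3.11.15, pandas 2.3.3, statsmodels 0.14.6) was tested on simulated data. Differences were planted there only in brighter genes, with noise below the probe set error, so recovery in dim genes near the floor was not tested.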

Additional observations from a re-analysis of the deposited data

How the results depend on the processing

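The counts depended most on the floor. At the 25th percentile (a signal of 16.2), 81 member genes were measured, 50 with a log2 ratio above 0. Of the 81, 19 were at least 2-fold higher and 5 lower. Of all genes measured there, 51.8% were above 0, 10.1% at least 2-fold higher and 10.3% lower. At the 75th (306.9), 12 were measured, 9 above 0, 2 at least 2-fold higher and 1 lower. There 49.4% of all measured genes were above 0, 2.22% at least 2-fold higher and 5% lower. At that floor, 2 members were above it in the knockout only. With both arrays above the floor, 23 were measured, 16 above 0, 3 at least 2-fold higher and 1 lower. Of all such genes, 50.1% were above 0, 3.22% at least 2-fold higher and 6.52% lower. Median centring gave 10 at least 2-fold higher, where the share of all measured genes went from 3.95% to 5.58%. It shifted all measured genes from a median of 0.02 to 0.16. With the pseudocount, and without shared probe sets, 1 was at least 2-fold lower, against 5.01% and 6.76% of all measured genes. The members' median ran from 0.17 to 0.37 over the 10 alternatives. The HOX median of 0.06 turned to -0.32 with both arrays above the floor (3 genes), and was 0.53 with the lower floor and 0.69 with the pseudocount. FOXK2 and FOXL2 stayed past 2-fold in all 10, HOXB2 in all 8 that measured it, FOXO3 in 8 of 9 (log2 ratio 0.92 with the pseudocount), LHX3 in 7 of 8, TBX1 in 7 of 8 and PBX4 in 9 of 10 (-0.96 without shared probe sets). No member at least 2-fold different changed sign. Of 339 values of single members under an alternative, 23 moved by more than the probe set error. FOXP1 became 0.16 with the median of its probe sets. The causes of these moves were not tested. Signal close to background limits what the dim members can show. No paired analysis was possible because each group has 1 array.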
